A study of Homo sapiens with 12 samples.

Results

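The genes described here are 10 regulators of the G1 phase: the cyclins CCND1, CCND3, CCNE1 and CCNE2, the cyclin-dependent kinases CDK4 and CDK6, the transcription factor E2F1, the retinoblastoma protein RB1 and the CDK inhibitors CDKN1A (p21) and CDKN1B (p27). They were set by symbol, with earlier results of these data known, from 56364 symbols listed in at least 1 of 3 tables, and all 10 had exactly 1 entry in every table. The data are RNA-seq from triple-negative breast cancer (TNBC) lines, which as a class lack estrogen and progesterone receptors and HER2 amplification. HCC70 cells were treated for 24 h with vehicle, with the nuclear receptor antagonist XY018 at 1.25 or 2.5 μM, with the statin atorvastatin (ATV) at 1.25 μM, or with XY018 and ATV at 1.25 μM each. For MDA-MB468 these 5 treatments were repeated, and an experiment with its own vehicle used GSK805, an antagonist of the same receptor, at 2.5 μM. The sample labels of the MDA-MB468 library with both compounds give no ATV dose, which comes from the treatment protocol and the column header. Each of the 12 conditions has 1 library, so no difference has a replicate check and no test was run.

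In G1, D cyclins bind CDK4 and CDK6 and start the phosphorylation of RB1, which releases E2F factors. E2F factors then activate the E cyclins and the genes of DNA replication, and cyclin E with CDK2 completes the phosphorylation. CDKN1A and CDKN1B bind and restrain these kinases. MDA-MB468 is known as a line without functional RB1.

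Values are FPKM, that is fragment numbers divided by transcript length and by library size, so levels of different genes can be compared within a library. Changes are log2 ratios to the vehicle of the same table, taken after adding 0.1 FPKM, and were computed where either library reached 1 FPKM. From 1.5-fold a gene was called lower or higher. The files hold no counts. Depth was estimated from the spacing of low values at 9050000 to 10100000 fragments per library for HCC70, 17800000 to 19800000 for XY018 and ATV in MDA-MB468, and 8370000 and 8680000 for the GSK805 experiment. The 95% intervals given below come from these estimates and cover counting error only. Basal and epithelial keratins and adhesion genes marked every library. All 5 epithelial markers were at 1 FPKM or above throughout. So were all 6 basal markers, except KRT14 in MDA-MB468 with XY018, ATV or their vehicle, where it was at 0.45 to 4.67 FPKM. ESR1, the estrogen receptor, was at 1.77 to 5.67 FPKM in the GSK805 experiment and at 0.37 to 0.67 FPKM in the 10 other libraries. PGR, the progesterone receptor, was at 0 FPKM in MDA-MB468 and was not listed for HCC70. ERBB2 (HER2) was at 25.3 to 57.7 FPKM over all libraries, and its amplification was not measured. Of the markers of other cell types, CD3E (T cells) reached at most 0.14 FPKM and PTPRC (leukocytes) at most 1.06 FPKM, PECAM1 (endothelium) was at 0.93 to 1.21 FPKM in HCC70 and 0.10 to 0.25 FPKM in MDA-MB468 with XY018, ATV or their vehicle, and COL1A1 (fibroblasts) was at 3.84 to 17.2 FPKM, with COL1A2 at 0.07 FPKM or below where it was listed.

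The untreated lines differed in which G1 genes they expressed most. In the HCC70 vehicle the order ran from CDKN1A (88.6 FPKM) through CDK4 (55.6), CCND3 (54.0), E2F1 (32.5), CCND1 (28.9), CCNE2 (22.9), CDKN1B (19.4), CCNE1 (17.9) and CDK6 (14.9) to RB1 (9.10 FPKM). In the vehicle of the XY018 experiment in MDA-MB468, CCND1 came first at 73.3 FPKM, CDK4 and CCND3 followed at 45.8 and 43.8 FPKM, and CDK6 and RB1 came last at 3.99 and 0.20 FPKM. CDKN1A, the most abundant member in HCC70, was at 11.4 FPKM there. The tables of the lines were normalized separately, and the 2 MDA-MB468 vehicles themselves differed between tables by a median of 0.56 on the log2 scale with an SD of 1.14 over 11952 genes. Levels are therefore compared below only within a table, except where the other vehicle is named for GSK805.

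**Figure D1:**
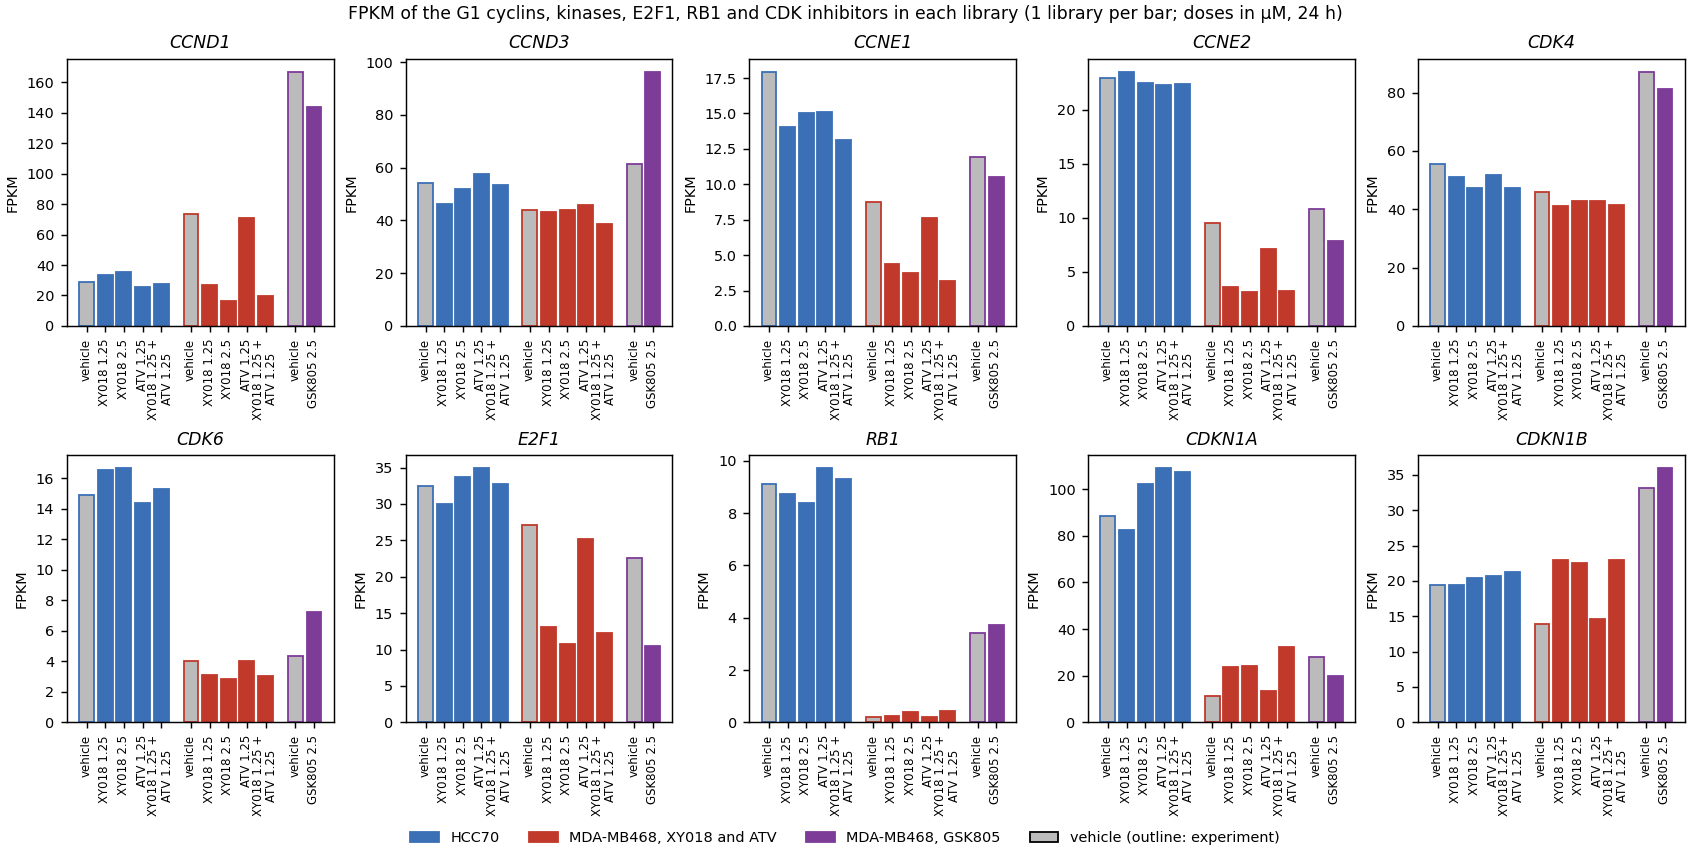
FPKM of each of the 10 genes (1 panel each, y axis from 0) in the 12 libraries along the x axis, 1 bar per library, with HCC70 in blue, MDA-MB468 with XY018 and ATV in red, MDA-MB468 with GSK805 in purple, and vehicles filled in grey. CCND1, CCNE1, CCNE2 and E2F1 are lower, and CDKN1A and CDKN1B higher, in the 3 MDA-MB468 libraries with XY018 than in the vehicle and ATV libraries of that table, while the HCC70 bars of each gene lie within 1.37-fold of each other.

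Among the D cyclins, which couple growth signals to CDK4 and CDK6, CCND1 fell in MDA-MB468 with XY018 and CCND3 did not. CCND1 (GRCh37 chromosome 11, 69455924 to 69469242) was at 73.3 FPKM with vehicle, 70.9 with ATV, 27.0 and 16.5 with the lower and higher dose of XY018 and 19.8 with both compounds. The 3 libraries with XY018 were all below the vehicle and the ATV library, and the order followed the dose. The log2 ratios to vehicle were -1.44 (interval -1.51 to -1.37), -2.15 (-2.24 to -2.07) and, with both, -1.89 (-1.97 to -1.81). Only 0.80%, 0.55% and 0.76% of the genes compared had a lower or equal ratio in these libraries. In bulk RNA, fewer cells with a transcript and less of it per cell cannot be told apart.

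CCND3 (chromosome 6, 41902672 to 42018095) was at 43.8 FPKM with vehicle, 43.1 and 43.8 FPKM with the lower and higher dose of XY018, 45.6 FPKM with ATV and 38.5 FPKM with both. These values lie within 1.19-fold of each other. The more abundant D cyclin in MDA-MB468 therefore changed with XY018: the FPKM of CCND1 over that of CCND3 was 1.67 with vehicle and 1.55 with ATV, against 0.63 and 0.38 with the 2 doses of XY018 and 0.51 with both. In HCC70 CCND3 was above CCND1 in all 5 libraries, by 1.39-fold to 2.24-fold.

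HCC70 gave CCND1 values of 28.9 FPKM with vehicle, 33.3 and 35.4 FPKM with XY018 at 1.25 and 2.5 μM, 25.8 FPKM with ATV and 27.4 FPKM with both. Here the 2 libraries with XY018 alone were the highest, with log2 ratios of 0.20 (0.09 to 0.32) and 0.29 (0.18 to 0.41), below the 1.5-fold line. The difference between the lines in the log2 ratio of CCND1 was -2.44 at 2.5 μM and -1.64 at 1.25 μM, MDA-MB468 minus HCC70.

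The E cyclins, which activate CDK2 at the entry to S phase, fell together in MDA-MB468 with XY018. CCNE1 (chromosome 19, 30302898 to 30315219) was at 8.76 FPKM with vehicle, 7.62 with ATV, 4.34 and 3.72 with XY018 at 1.25 and 2.5 μM and 3.20 with both compounds. CCNE2 was at 9.52, 7.07, 3.60, 3.16 and 3.25 FPKM in the same order. For both genes the 3 libraries with XY018 were the lowest and ATV alone lay between them and the vehicle. The log2 ratios were -1.0, -1.21 and -1.42 for CCNE1 and -1.38, -1.56 and -1.52 for CCNE2, and the widest of their 6 intervals ran from -1.76 to -1.14. With ATV alone CCNE2 had a log2 ratio of -0.42 (-0.63 to -0.23), the largest of any member under ATV in this line, and 1.72% of the genes compared had a lower or equal ratio.

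In HCC70, CCNE1 was at 17.9 FPKM with vehicle, 14.1 and 15.0 FPKM with the 2 doses of XY018, 15.1 FPKM with ATV and 13.2 FPKM with both. It was lower than vehicle in all 4 treated libraries, with log2 ratios of -0.35, -0.25, -0.24 and -0.44, the last of these the largest change of any member in this line. CCNE2 stayed between 22.3 and 23.5 FPKM in the 5 HCC70 libraries.

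Of the kinases that D cyclins activate, CDK4 changed little with XY018, and CDK6 was lower in MDA-MB468 by less than 1.5-fold. CDK4 (chromosome 12, 58141510 to 58149796) was at 45.8 FPKM with vehicle in MDA-MB468 and at 41.0, 42.7, 43.0 and 41.5 FPKM with XY018 at its lower and higher dose, ATV and both compounds. All 4 treated values were below vehicle, by 1.07-fold to 1.12-fold. In HCC70 it was at 55.6 FPKM with vehicle and at 51.2, 47.4, 51.6 and 47.4 FPKM in the same order, again lower in all 4 by up to 1.17-fold.

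CDK6 (chromosome 7, 92234235 to 92465887), the paralogous kinase, was at 3.99 FPKM with vehicle and 4.03 FPKM with ATV in MDA-MB468, against 3.13 and 2.85 FPKM with the 2 doses of XY018 and 3.03 FPKM with both. The 3 libraries with XY018 were the lowest, at log2 ratios of -0.34 (-0.49 to -0.21), -0.47 (-0.64 to -0.33) and -0.39 (-0.54 to -0.25), which is under 1.5-fold. In HCC70 CDK6 was at 14.4 to 16.7 FPKM, and the 2 libraries with XY018 alone were the highest.

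E2F1, the activator at the end of this pathway, fell in MDA-MB468 with XY018. E2F1 (chromosome 20, 32263283 to 32274191) was at 27.2 FPKM with vehicle, 25.2 with ATV, 13.1 and 10.8 with XY018 at 1.25 and 2.5 μM and 12.3 with both. The 3 libraries with XY018 were 2.07-fold, 2.51-fold and 2.21-fold below vehicle, with log2 ratios of -1.05 (-1.19 to -0.92), -1.33 (-1.49 to -1.19) and -1.14 (-1.29 to -1.01). In HCC70 E2F1 was at 32.5 FPKM with vehicle and between 30.01 and 34.9 FPKM in the treated libraries, on both sides of the vehicle.

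RB1 (chromosome 13, 48877880 to 49173572), the repressor of E2F factors, was at 9.10 FPKM with vehicle in HCC70 and at 8.73, 8.4, 9.72 and 9.30 FPKM with the lower and higher dose of XY018, with ATV and with both. These values lie within 1.16-fold of each other. In the MDA-MB468 libraries of the XY018 series, RB1 was at 0.20 FPKM with vehicle, 0.23 and 0.39 FPKM with the 2 doses of XY018, 0.22 FPKM with ATV and 0.43 FPKM with both. All were under 1 FPKM, an estimated 19 fragments in the vehicle, so RB1 was not compared there and the members compared are 9. In the GSK805 experiment the same line was listed with RB1 at 3.42 FPKM with vehicle and 3.71 FPKM with GSK805. LPAR6 (48963703 to 49018840) and RCBTB2 (49063099 to 49107392) lie within the annotated span of RB1 on the opposite strand. Reads of overlapping exons cannot be told apart without strand, and whether the exons of these genes overlap was not examined. LPAR6 was at 0 and RCBTB2 at 0.66 and 0.13 FPKM in the GSK805 experiment, and why RB1 differed between the MDA-MB468 tables was not tested.

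The CDK inhibitors CDKN1A and CDKN1B rose in the MDA-MB468 libraries where CCND1, CCNE1 and CCNE2 fell. CDKN1A (chromosome 6, 36644237 to 36655114) was at 11.4 FPKM with vehicle in MDA-MB468, 13.3 with ATV, 23.6 and 24.3 with XY018 at 1.25 and 2.5 μM and 32.2 with both compounds. The 3 libraries with XY018 were the highest, and the one with both compounds lay above the others. The log2 ratios were 1.04 (0.89 to 1.21), 1.08 (0.93 to 1.25) and 1.49 (1.34 to 1.65).

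CDKN1B (chromosome 12, 12838432 to 12875303) was at 14.0 FPKM with vehicle and 14.6 FPKM with ATV, and at 23.0, 22.5 and 22.9 FPKM in the 3 libraries with XY018. It rose by 1.64-fold, 1.61-fold and 1.64-fold, a step that did not grow with dose or with ATV. In these libraries 6.65%, 11.1% and 9.58% of the genes compared had a higher ratio. The summed FPKM of both inhibitors in MDA-MB468 went from 25.4 with vehicle to 46.6, 46.8 and 55.1 with XY018, while the summed FPKM of CCNE1 and CCNE2 went from 18.3 to 7.94, 6.88 and 6.45.

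HCC70 cells gave 88.6 FPKM of CDKN1A with vehicle, 82.6 and 102 FPKM with XY018 at 1.25 and 2.5 μM, 109 FPKM with ATV and 107 FPKM with both. The largest log2 ratio, 0.30 (0.21 to 0.39), was that of ATV alone. CDKN1B stayed between 19.4 and 21.2 FPKM.

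**Figure D2:**
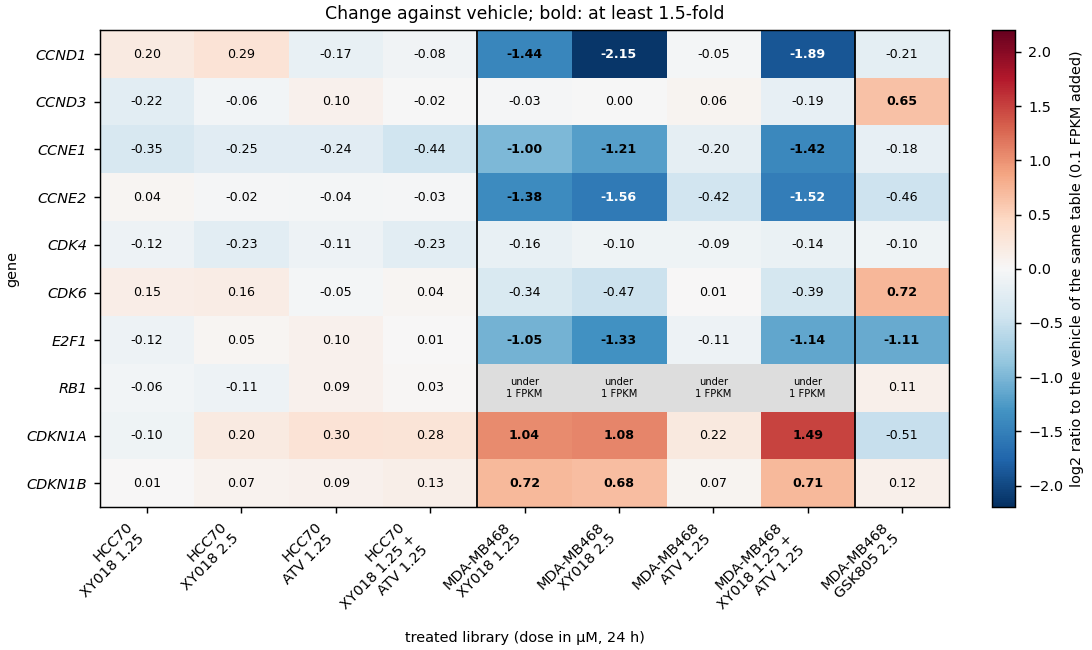
Heat map of the log2 ratio of each of the 10 genes (rows) in each of the 9 treated libraries (columns) to the vehicle of its own table, with 0.1 FPKM added. Blue is lower, red is higher, bold marks changes of at least 1.5-fold and grey marks RB1 under 1 FPKM. The bold cells are 6 in each MDA-MB468 column with XY018, from -2.15 for CCND1 to 1.49 for CDKN1A, and 3 in the GSK805 column, with none in the other columns.

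Counted together, 4 of the 9 members compared were lower and 2 higher in MDA-MB468 with XY018 at each dose and with both compounds, always CCND1, CCNE1, CCNE2 and E2F1 against CDKN1A and CDKN1B. Of all genes, 8.38% were lower and 9.73% higher with XY018 at 1.25 μM, 14.5% and 14.1% at 2.5 μM, and 12.2% and 13.1% with both. The median log2 ratio of the members was -0.34, -0.47 and -0.39, beside at most 0.01 over all genes. With ATV alone 0 of 9 members were called in either direction in MDA-MB468, where 0.803% of all genes were lower and 1.37% higher.

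In HCC70 0 of 40 member values passed 1.5-fold. The shares of all genes lower and higher there were 2.64% and 1.93% with XY018 at 1.25 μM, 3.26% and 2.62% at 2.5 μM, 1.32% and 2.22% with ATV, and 2.93% and 4.38% with both, so a list of 10 genes with no call is near the background of this line. Changes of all genes were also smaller in HCC70, with an SD of 0.30 on the log2 scale against 0.61 in MDA-MB468 over the 10856 genes compared in both lines at 2.5 μM.

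**Figure D3:**
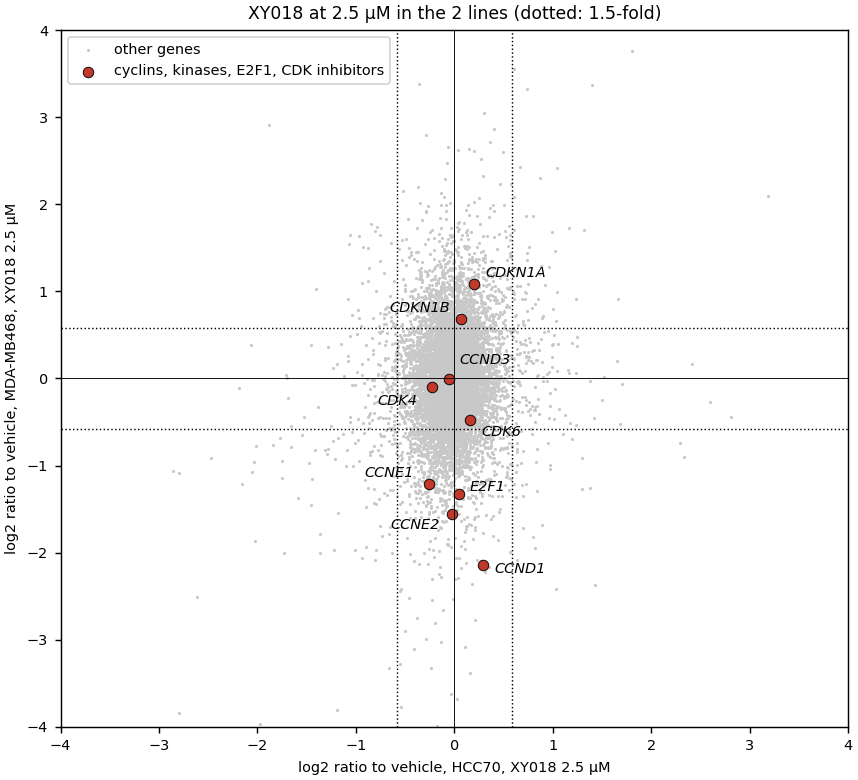
Log2 ratio to vehicle with XY018 at 2.5 μM in HCC70 (x axis) and in MDA-MB468 (y axis), with grey points for all genes compared in both lines within 4 units of 0, red points for 9 of the 10 genes described here, and dotted lines at 1.5-fold. The red points lie within 0.29 of 0 on the x axis and spread from -2.15 (CCND1) to 1.08 (CDKN1A) on the y axis.

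The step from 1.25 to 2.5 μM XY018 moved CCND1 more than any other member compared in MDA-MB468. Its log2 ratio between the doses was -0.71 (-0.82 to -0.61), a 1.64-fold step, followed by E2F1 at -0.28 (-0.45 to -0.11). For CCNE1 and CCNE2 the steps were -0.22 and -0.18 with intervals that cross 0, and CDKN1A and CDKN1B moved by 0.04 and -0.03. Most of the change in the E cyclins and in CDKN1A and CDKN1B was thus present at the lower dose. The same holds for CCND1 and E2F1, with log2 ratios to vehicle of -1.44 and -1.05 at 1.25 μM against -2.15 and -1.33 at 2.5 μM. In HCC70 the largest step was that of CDKN1A, at 0.31 (0.21 to 0.40).

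Adding ATV to 1.25 μM XY018 in MDA-MB468 moved 3 members most. The log2 ratio of both compounds to XY018 alone was -0.45 (-0.55 to -0.36) for CCND1, -0.43 (-0.79 to -0.09) for CCNE1 and 0.45 (0.33 to 0.57) for CDKN1A. The log2 ratio of both compounds minus the sum of the separate log2 ratios of XY018 and ATV was -0.40 for CCND1, -0.23 for CCNE1, 0.23 for CDKN1A, 0.28 for CCNE2, 0.01 for E2F1, and between -0.22 (CCND3) and 0.11 (CDK4) for the other 4 members compared. In HCC70 this difference lay between -0.12 and 0.15 for all 10 members. No interval was computed for these differences. In MDA-MB468 with both compounds, CCNE1 and CCNE2 rest on an estimated 118 and 165 fragments, so their differences are not read as departures from 0.

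With GSK805, used only in MDA-MB468 and at 2.5 μM, E2F1 was lower and CCND1 lay near its vehicle. E2F1 was at 22.6 FPKM with vehicle and 10.4 FPKM with GSK805, a log2 ratio of -1.11 (-1.35 to -0.89). CCND1 was at 167 and 144 FPKM, a log2 ratio of -0.21 (-0.27 to -0.16). CCND3 rose from 61.4 to 96.3 FPKM and CDK6 from 4.36 to 7.26 FPKM, log2 ratios of 0.65 (0.53 to 0.77) and 0.72 (0.56 to 0.91).

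The other members stayed within 1.5-fold under GSK805. CCNE1 was at 11.9 and 10.5 FPKM, CCNE2 at 10.8 and 7.83 FPKM, CDK4 at 87.1 and 81.3 FPKM and CDKN1B at 33.1 and 36.0 FPKM with vehicle and GSK805. CDKN1A was at 28.2 FPKM with vehicle and 19.7 FPKM with GSK805, a log2 ratio of -0.51 (-0.72 to -0.31). In all, 1 of 10 members was lower and 2 were higher, which is near the 16.6% and 17.6% of all genes that were lower and higher in this experiment.

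Both antagonists were used at 2.5 μM for 24 h in MDA-MB468, in separate experiments with separate vehicles, so their ratios are set side by side without a test. E2F1 had log2 ratios of -1.33 with XY018 and -1.11 with GSK805, a difference of -0.22. CDK4 was at -0.10 with each. The others lay further apart: XY018 minus GSK805 was -1.94 for CCND1, -0.65 for CCND3, -1.04 for CCNE1, -1.10 for CCNE2, -1.19 for CDK6 and 0.57 for CDKN1B. CDKN1A had log2 ratios of 1.08 with XY018 and -0.51 with GSK805, a difference of 1.59. The latter is under 1.5-fold, and it turned to 0.79 against the vehicle of the XY018 experiment. Against that vehicle CCND1, CCNE1 and CDK4 with GSK805 also turned from lower to higher, while E2F1 and CCNE2 stayed lower. That vehicle belongs to a separately normalized table. A change of experiment, annotation and vehicle comes with the change of compound, and these cannot be told apart.

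The bases upstream of 4 members that moved with XY018 in MDA-MB468 are shown because E2F1 and the E cyclins are known to be under E2F control and because the inhibitors moved the other way. Sequences are from RefSeq (GRCh38.p14), 250 bases before the annotated start on the gene's strand, and entries were found for 8 of the 10 members, not for CCND1 and CCNE2. Capitals mark E2F letters, searched as TTTCCCGC, TTTCGCGC, TTTGCCGC and TTTGGCGC on both strands, where a palindromic overlap would count as 2 matches.
E2F1 (chr20:33686386-33686635, minus strand): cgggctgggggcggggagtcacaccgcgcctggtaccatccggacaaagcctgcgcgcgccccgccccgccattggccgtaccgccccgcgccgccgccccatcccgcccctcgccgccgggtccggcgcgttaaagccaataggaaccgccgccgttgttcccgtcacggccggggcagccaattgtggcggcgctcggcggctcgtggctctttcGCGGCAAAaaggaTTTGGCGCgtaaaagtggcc
CCNE1 (chr19:29811741-29811990, plus strand): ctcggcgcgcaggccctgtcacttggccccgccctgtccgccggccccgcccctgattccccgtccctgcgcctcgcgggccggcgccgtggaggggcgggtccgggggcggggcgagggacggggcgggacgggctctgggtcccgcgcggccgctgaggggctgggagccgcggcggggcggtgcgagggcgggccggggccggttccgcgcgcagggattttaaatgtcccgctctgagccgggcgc
CDKN1A (chr6:36678464-36678713, plus strand): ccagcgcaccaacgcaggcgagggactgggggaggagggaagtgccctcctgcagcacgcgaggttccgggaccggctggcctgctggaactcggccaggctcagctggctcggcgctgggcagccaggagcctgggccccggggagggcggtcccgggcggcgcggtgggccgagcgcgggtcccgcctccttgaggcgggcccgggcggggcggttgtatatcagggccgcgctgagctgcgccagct
CDKN1B (chr12:12717118-12717367, plus strand): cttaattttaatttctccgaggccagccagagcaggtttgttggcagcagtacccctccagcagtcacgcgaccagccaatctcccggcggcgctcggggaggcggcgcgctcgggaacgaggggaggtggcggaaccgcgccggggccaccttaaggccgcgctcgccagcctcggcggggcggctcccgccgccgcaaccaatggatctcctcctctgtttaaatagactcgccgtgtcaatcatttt
E2F1 held 2 matches, the first bases of which lie 33 and 20 bases before the start, and the other 7 members with an entry held none in this window. Over all 27305 genes with an entry, 3.40% held at least 1 match. These matches are letters in a window and not measured binding sites.

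Among known targets of E2F factors, many were lower in MDA-MB468 with XY018. Of 21 such genes compared, 10 were lower at the lower dose of XY018, 16 at the higher dose and 14 with both compounds, and 0 were higher in any of them, beside 8.38%, 14.5% and 12.2% of all genes that were lower. CDT1, a replication licensing factor, named after its values were seen, was not among those lower and had a log2 ratio of 0.26 with both compounds. The median log2 ratio of the 21 genes was -0.58, -0.99 and -0.71. Of the 18 with an upstream entry, 8 (44.4%) held an E2F match, beside 3.40% of all genes with an entry. The list was set as known E2F targets, so this share describes the list and not its change with XY018. RRM2, a subunit of ribonucleotide reductase, went from 39.99 FPKM with vehicle to 11.0, 6.24 and 8.26 FPKM. UHRF1, which maintains DNA methylation after replication, went from 14.9 to 4.96, 3.42 and 3.17 FPKM. PCNA, the sliding clamp of DNA polymerases, went from 223 to 111, 89.4 and 88.1 FPKM.

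With GSK805 12 of the 21 E2F targets were lower and 0 higher, with a median log2 ratio of -0.64, beside 16.6% of all genes lower and 17.6% higher. The 3 that changed most were MYBL2, a transcription factor of the cell cycle (61.7 to 25.5 FPKM), PCNA (227 to 98.4 FPKM) and TK1, thymidine kinase (92.9 to 42.2 FPKM). With ATV alone 0 of 21 were called in MDA-MB468, at a median of -0.12, beside 0.803% of all genes lower and 1.37% higher. In HCC70 0 of 21 were called in any of the 4 treated libraries, with medians from -0.09 to 0.01. Between 1.32% and 4.38% of all genes were called per direction in HCC70, so these counts of 0 are near the background.

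**Figure D4:**
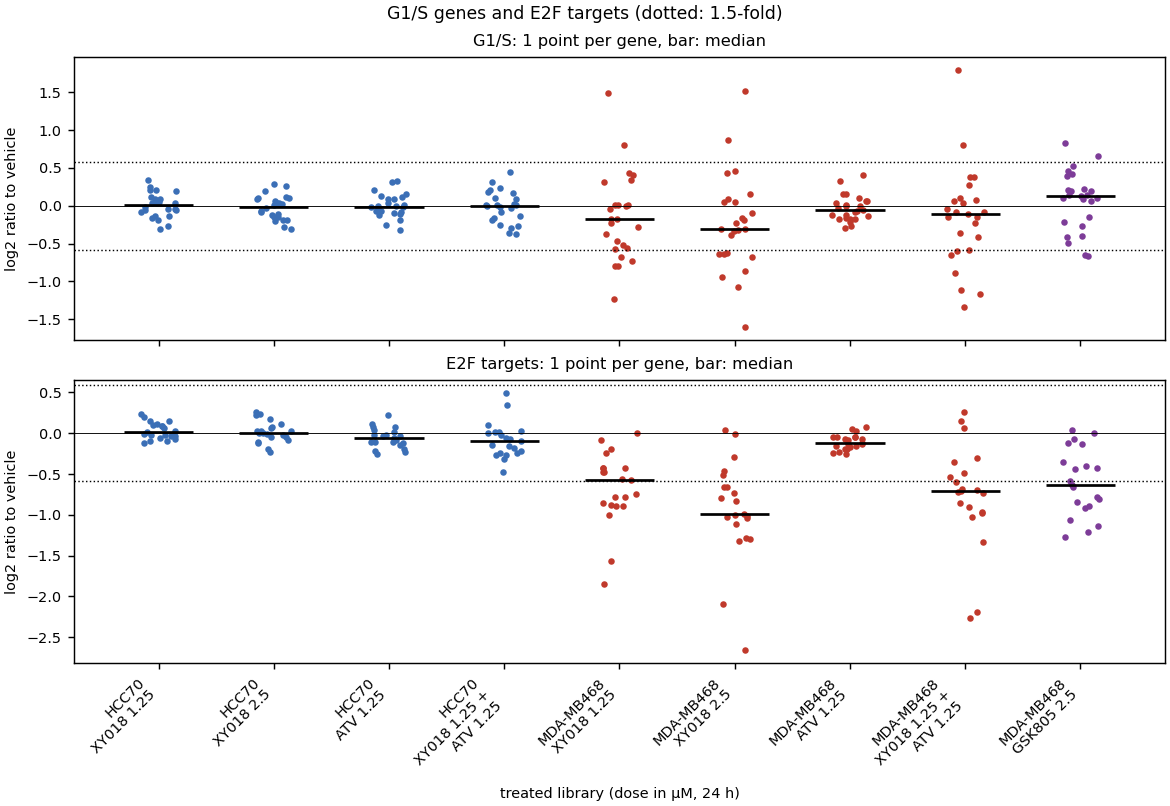
Log2 ratio to vehicle (y axis) of the genes of 2 lists, G1 and S entry genes and E2F targets, in each of the 9 treated libraries (x axis), 1 point per gene compared, with a black bar at the median, dotted lines at 1.5-fold and blue, red and purple for HCC70, MDA-MB468 with XY018 and ATV, and MDA-MB468 with GSK805. The median of the E2F targets lies at -0.58, -0.99 and -0.71 in the MDA-MB468 columns with XY018 and at -0.64 with GSK805, and between -0.12 and 0.01 in the others.

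Other G1 and S entry genes, among them further E2F family members, inhibitors and the CDK-activating kinase, changed less uniformly. Of 25 compared in MDA-MB468, 5 were lower and 2 higher with XY018 at 1.25 μM, 8 and 2 at 2.5 μM, 6 and 2 with both, and 0 with ATV. The 2 higher in each library with XY018 are a share at or below the 9.73%, 14.1% and 13.1% of all genes that were higher, and the shares of all genes that were lower were 8.38%, 14.5% and 12.2%. With ATV 0.803% of all genes were lower and 1.37% higher, so 0 of 25 is near that background. CDC25A, a phosphatase that activates CDK2, went from 5.83 FPKM to 2.41, 2.71 and 2.53 FPKM in the libraries with XY018. E2F7, an E2F target that acts as a repressor, went from 1.67 FPKM to 0.48 FPKM at 2.5 μM and 0.60 FPKM with both.

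The inhibitor CDKN1C (p57), of the same family as CDKN1A and CDKN1B, was at 2.01 FPKM with vehicle and 5.82, 5.93 and 7.24 FPKM in the 3 libraries with XY018. CDK7, the kinase of the CDK-activating complex, rose from 16.2 to 28.3 FPKM at 1.25 μM, a log2 ratio of 0.80. With the higher dose of XY018 the log2 ratio of CDK7 in MDA-MB468 was 0.87. With GSK805 2 of 25 were lower and 2 higher, below the shares of 16.6% and 17.6% of all genes. Those with the largest values were MYC (90.8 to 162 FPKM), CDKN1C (6.65 to 10.6 FPKM) and TFDP1, the partner of E2F factors (106 to 66.9 FPKM). In HCC70 0 of 24 compared were called in any treated library. Between 1.32% and 4.38% of all genes were called per direction there, so this is near the background.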

How the data were processed

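RNA-seq libraries of HCC70 and MDA-MB468 cells were made with a TruSeq RNA kit, sequenced on an Illumina HiSeq instrument, mapped to GRCh37/hg19 and quantified with a BWA, Bowtie and Cufflinks workflow, per the submitters' processing notes and the methods. The values deposited by the authors are FPKM, in 3 tables normalized separately. The headers name no unit, and FPKM was taken from the named workflow and the values. The GSK805 table uses a wider annotation, and its 10 largest values hold 46.5% to 50.1% of the summed FPKM. The labels and the methods name different media for MDA-MB468.

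Ratios were taken to the vehicle library in the same table, with a pseudocount of 0.1 and a minimum of 1 FPKM. With repeated symbols the entry with the highest mean was used. Groups were taken from the sample labels, and nothing was tested. The 10 genes, the lists and the rules were chosen with earlier results of these data known. All 10 genes were named in every comparison and, of each list, up to 3 genes past 1.5-fold with the largest change per comparison. For the 2 members with the widest range of ratios, the 3 other genes with the most similar ratios were named.

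Depth was estimated by trying offsets to the transcript length of up to 200 nt. The offset for the GSK805 table was the largest tried, so its depth is the least certain. Fragments of a gene were then estimated with its canonical GENCODE transcript, and 95% Clopper-Pearson intervals of the ratio were computed. The calculation was tested on simulated data. The alternatives were pseudocounts of 1 and 0.01, no minimum, a minimum of 5 FPKM, rescaling to a median of 0, a 2-fold threshold, summed entries per symbol and, for GSK805, the vehicle of the XY018 experiment. The scripts ran on matplotlib 3.10.9, scipy 1.17.1, pandas 2.3.3 and numpy 2.4.6 under Python 3.11.15. Some genes and a gene list are not reported here.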

Additional observations from a re-analysis of the deposited data

How the results depend on the processing

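Many of the 64 counts of called members under an alternative are for HCC70 or ATV alone, where 0 members were called. Of the 64, 62 stayed within 1.5 times the value reported. The exceptions were both for GSK805, where 3 of 10 members were called. At a 2-fold threshold 1 was called, E2F1. Against the vehicle of the XY018 experiment 8 were called, 1 lower and 7 higher, which sets values of separately normalized tables against each other. All 21 called member values kept their direction and stayed past 1.5-fold under each of the other alternatives that gave them a value. Each member has 1 entry, so a changed minimum or summed entries cannot alter its ratio. Only the pseudocounts, the rescaling and, for GSK805, the other vehicle could move these values. Of the member ratios under alternatives, 513 stayed within counting error of the reported value and 8 did not, and of the medians over the members 50 stayed within that range and 5 did not. The 513 include the alternatives that cannot move a ratio. No paired analysis was possible because each condition has 1 library, and for the same reason no library could be left out. Spread between cultures was not measured. RB1 in MDA-MB468 with XY018, ATV or their vehicle rests on an estimated 19 to 39 fragments per library, at which depth a change was not read.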

Other observations

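The genes whose log2 ratios over the 9 treated libraries were most like those of CCND1 were ERRFI1 (Pearson r = 0.994), ANO1 (0.993) and ANPEP (0.990), out of 1264 genes that were at 5 FPKM or above in every vehicle and had a range of at least 1. In MDA-MB468 with XY018 at 2.5 μM their log2 ratios were -1.37, -1.43 and -1.59, beside -2.15 for CCND1, and in HCC70 at that dose they were 0.16, 0.20 and 0.21. For CDKN1A they were SNAPC2 (0.976), IFT52 (0.961) and P4HA2 (0.960). P4HA2 had log2 ratios of 1.02, 1.17 and 1.58 in MDA-MB468 with the lower dose of XY018, the higher dose and both compounds, and of -0.27 with GSK805. SNAPC2 and IFT52 changed less with XY018. In the same order SNAPC2 was at 0.43, 0.62, 0.58 and -0.86, and IFT52 at 0.41, 0.48, 0.48 and -0.54. The 9 ratios share 3 vehicles and most of their spread lies between MDA-MB468 with XY018 and the rest, so these values are a description of these libraries.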
